A study of Rattus norvegicus with 32 samples.

Results

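The major urinary proteins of the rat, also called alpha-2u-globulins, are small lipocalins, barrel-shaped carriers of hydrophobic ligands that the liver secretes into blood and the kidney passes into urine, where they carry scent signals. In rats they are known as products of the adult male liver, and their synthesis is known to need androgen, growth hormone, thyroid hormone and glucocorticoid and to be repressed by oestrogen. Here 6 rows of the count table were followed, of 17327 genes in all. They were chosen by symbol, with earlier results of these data known. They were Mup5, LOC259244, Obp3, LOC298116 and LOC259246, taken as lipocalin members, and Rup2. Rup2, rat urinary protein 2, is a small secreted protein of the Ly6/uPAR type (a three-fingered disulfide fold) and no lipocalin, so it is described apart from the other 5.

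The livers came from 32 Sprague Dawley rats, 4 in each of 8 groups that combined genotype, sex and age under basal conditions. Knockout (KO) rats had Serpina6, the gene of corticosteroid-binding globulin (CBG), disrupted in the germ line by CRISPR/Cas9. CBG is made by the liver and carries corticosterone in blood. The groups were KO males, WT males, KO females and WT females at 30 days of age and the same 4 at 60 days, and all other features of the animals, as far as the labels give them, were shared. The disruption was carried by the whole animal, so that its liver and its circulating hormones cannot be told apart. The sources used here do not state the number of KO founder lines.

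Each library held 12951969 to 21954929 reads on genes. The mean level of Serpina6 was lower in the KO livers in all 4 pairs of groups, 7.75- to 16-fold, with no overlap between KO and WT libraries. Hepatocyte markers (5 of 5 in the table, none at 0 in any group) summed to between 145000 and 223000 CPM in the 32 libraries. Photoreceptor markers summed to 1650 CPM in replicate 1 of the 60-day KO females and to at most 7.07 CPM in any other library, so called differences that use this library are also given without it. Levels are CPM, gene counts divided by library size, after trimmed mean of M-values (TMM) scaling. They are compared between samples and never between genes, since no gene length entered. Fold changes are log2 values from edgeR's quasi-likelihood test. That test gives no SE, so the SE shown is the size of the fold change over the square root of the F statistic. At or near 0 reads this SE is not reliable. The p-values were adjusted by the Benjamini-Hochberg method, within a contrast, for 11002 genes that passed the filter on low counts. A gene was called at an adjusted p below 0.05. Of the 6 members 5 passed that filter, and LOC259246 did not. In bulk liver fewer cells of a type and less RNA per cell cannot be told apart.

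Where the members lie is shown first, with the sequence before their starts, because the placed lipocalin members were all higher with age in males. RefSeq's rat assembly GRCr8 placed 4 of the 6 members. Mup5 lay at chr5:79996023-79999893, LOC259244, found by its gene ID and now named Mup4l4, at chr5:79704451-79707807, and Obp3 at chr5:79637234-79640810. These 3 genes spanned 362660 bases, within a cluster for which the same table lists 7 protein-coding genes named Mup or Obp3 and 7 Mup pseudogenes. Rup2 lay on another chromosome, at chr8:43547875-43551456. LOC298116 and LOC259246 were not matched. The authors' counts rest on the older assembly Rnor_5.0, per the submitters' processing notes, so these positions serve to place the genes and not the reads. All 4 genes lie on the minus strand. The 250 bases before each annotated transcript start follow 5′ to 3′, credited to RefSeq (GRCr8). In Mup5 and Obp3 that start lies inside the gene's span, which other transcripts extend, so the window overlaps the span. Capitals mark the motifs found, which were a TATA box (TATAAA, searched on the strand of the gene) and, on both strands, a C/EBP-type motif (TTGCNNAA), a STAT5-type motif (TTCNNNGAA), a steroid receptor hexamer (AGAACA) and an HNF1-type hexamer (GTTAAT, or ATTAAC on the other strand). No 2 matches overlapped.
Mup5, chr5:79999696-79999945: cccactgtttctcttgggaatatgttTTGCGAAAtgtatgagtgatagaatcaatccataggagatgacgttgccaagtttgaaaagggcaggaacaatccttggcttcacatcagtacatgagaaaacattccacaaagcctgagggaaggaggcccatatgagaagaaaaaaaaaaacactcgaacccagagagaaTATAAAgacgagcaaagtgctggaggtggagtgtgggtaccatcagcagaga
LOC259244, chr5:79707808-79708057: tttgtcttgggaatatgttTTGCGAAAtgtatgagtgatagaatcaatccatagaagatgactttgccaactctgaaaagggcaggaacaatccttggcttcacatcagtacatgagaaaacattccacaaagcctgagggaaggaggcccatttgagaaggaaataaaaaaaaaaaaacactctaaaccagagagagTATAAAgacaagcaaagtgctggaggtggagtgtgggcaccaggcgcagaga
Obp3, chr5:79640676-79640925: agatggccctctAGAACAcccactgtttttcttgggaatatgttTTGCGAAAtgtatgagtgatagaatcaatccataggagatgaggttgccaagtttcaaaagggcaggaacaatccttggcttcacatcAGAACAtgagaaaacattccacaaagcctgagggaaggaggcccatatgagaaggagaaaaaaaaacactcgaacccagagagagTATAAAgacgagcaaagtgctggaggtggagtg
Rup2, chr8:43551457-43551706: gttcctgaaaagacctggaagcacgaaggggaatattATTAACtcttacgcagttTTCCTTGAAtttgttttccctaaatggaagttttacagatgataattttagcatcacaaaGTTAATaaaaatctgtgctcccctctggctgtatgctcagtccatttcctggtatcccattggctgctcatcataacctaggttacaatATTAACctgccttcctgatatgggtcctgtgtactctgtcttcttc

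Aligned with gaps at the ends free and left out, so over their overlap, the Mup5 and Obp3 sequences were identical in 225 of 232 columns (97%). Mup5 and LOC259244 were identical in 229 of 250 (91.6%), and LOC259244 and Obp3 in 212 of 231 (91.8%). Rup2 was identical to the 3 others in 45.1% to 49% of columns, in alignments with 32 to 53 gap columns. The identity that unrelated sequences reach in this way was not measured. The 3 lipocalin members each held 1 TATA box, beginning 52 bases before the start in Mup5 and LOC259244 and 33 bases before it in Obp3. Each of the 3 also held 1 C/EBP-type motif, in the form TTGCGAAA, beginning 224 bases before the start in Mup5, 231 in LOC259244 and 206 in Obp3. Obp3 had the hexamer AGAACA at 238 and at 118 bases before its start, and neither Mup5 nor LOC259244 had it in this window. Rup2 held no TATA box, 1 STAT5-type motif (TTCCTTGAA, 195 bases before the start) and HNF1-type hexamers at 213, 135 and 46 bases. Among 33469 rat promoter sequences of the same length, 8.06% held TATAAA, 9.22% the C/EBP-type motif, 7.67% the STAT5-type motif, 17.5% AGAACA and 6.45% GTTAAT. These matches are of letters only, and no binding was measured.

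At 60 days the lipocalin members were transcripts of the male liver in both genotypes. Mup5 stood at 602, 411, 392 and 397 CPM in KO males and had 0, 0, 3 and 0 reads in KO females. In WT it stood at 615, 449, 561 and 384 CPM in males and had 2 reads in all in the 4 females. No male library overlapped a female one. Read for read, Mup5 was 8980-fold higher in males than in females in KO (95% interval 3070 to 43500, adjusted p = 7.17e-14, edgeR) and 14200-fold higher in WT (3930 to 117000, adjusted p = 7.34e-14). These intervals, like the ones below, are exact for the counts and cover counting error only.

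LOC259244, another gene of the cluster, showed the same split. It stood at 372, 265, 251 and 332 CPM in 60-day KO males, against 2 reads in all in KO females. In WT it stood at 301, 266, 311 and 322 CPM in males, against 4 reads in all in females. Its level was thus 9080-fold higher in males in KO (2510 to 75000, adjusted p = 2.78e-11, edgeR) and 4180-fold higher in WT (1630 to 15300, adjusted p = 2.96e-11). The folds of Mup5 and LOC259244 rest on 2 to 4 female reads, and their intervals overlap widely.

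Obp3, named an odorant binding protein, was also detected in 60-day males and had 1 read in all females of that age. The 60-day KO males had 122, 24, 50 and 75 Obp3 reads, against 0 in the 4 KO females. The WT males had 355, 202, 125 and 153, against 1 in the 4 WT females. The level was at least 103-fold higher in males in KO, taking 3 reads over the group as the limit that a count of 0 allows (adjusted p = 6.46e-05, edgeR), and 791-fold higher in WT (142 to 31300, adjusted p = 6.3e-06). LOC298116 had 20, 13, 6 and 12 reads in KO males and 24, 16, 22 and 13 in WT males at 60 days, against 0 in all 8 females of that age, which puts it at least 19.4-fold (adjusted p = 6.76e-05) and at least 23.7-fold (adjusted p = 2.1e-05) higher in males. LOC259246 had 15 reads in replicate 3 of the 60-day KO males and 0 in the other 31 libraries.

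Of the 5 members tested, 4 were higher in males in 60-day KO rats, where 9.63% of all genes tested were called higher in males, and 4 in 60-day WT rats, where 13.7% were. The median log2 difference, with members at 0 reads in females put at their lower bound, was 6.69 over the 5 members and -0.02 over all genes in KO, and 9.13 against 0 in WT. Rup2 was the member not called in either genotype. The 4 others passed the filter on low counts through male libraries, so these counts and medians are not independent of that filter. Each of the 4 lipocalin calls was kept at 60 days under every alternative that gave a value, in both genotypes. Without replicate 1 of the KO females, their adjusted p in KO lay between 6.4e-12 (Mup5) and 0.000335 (Obp3).

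**Figure D1:**
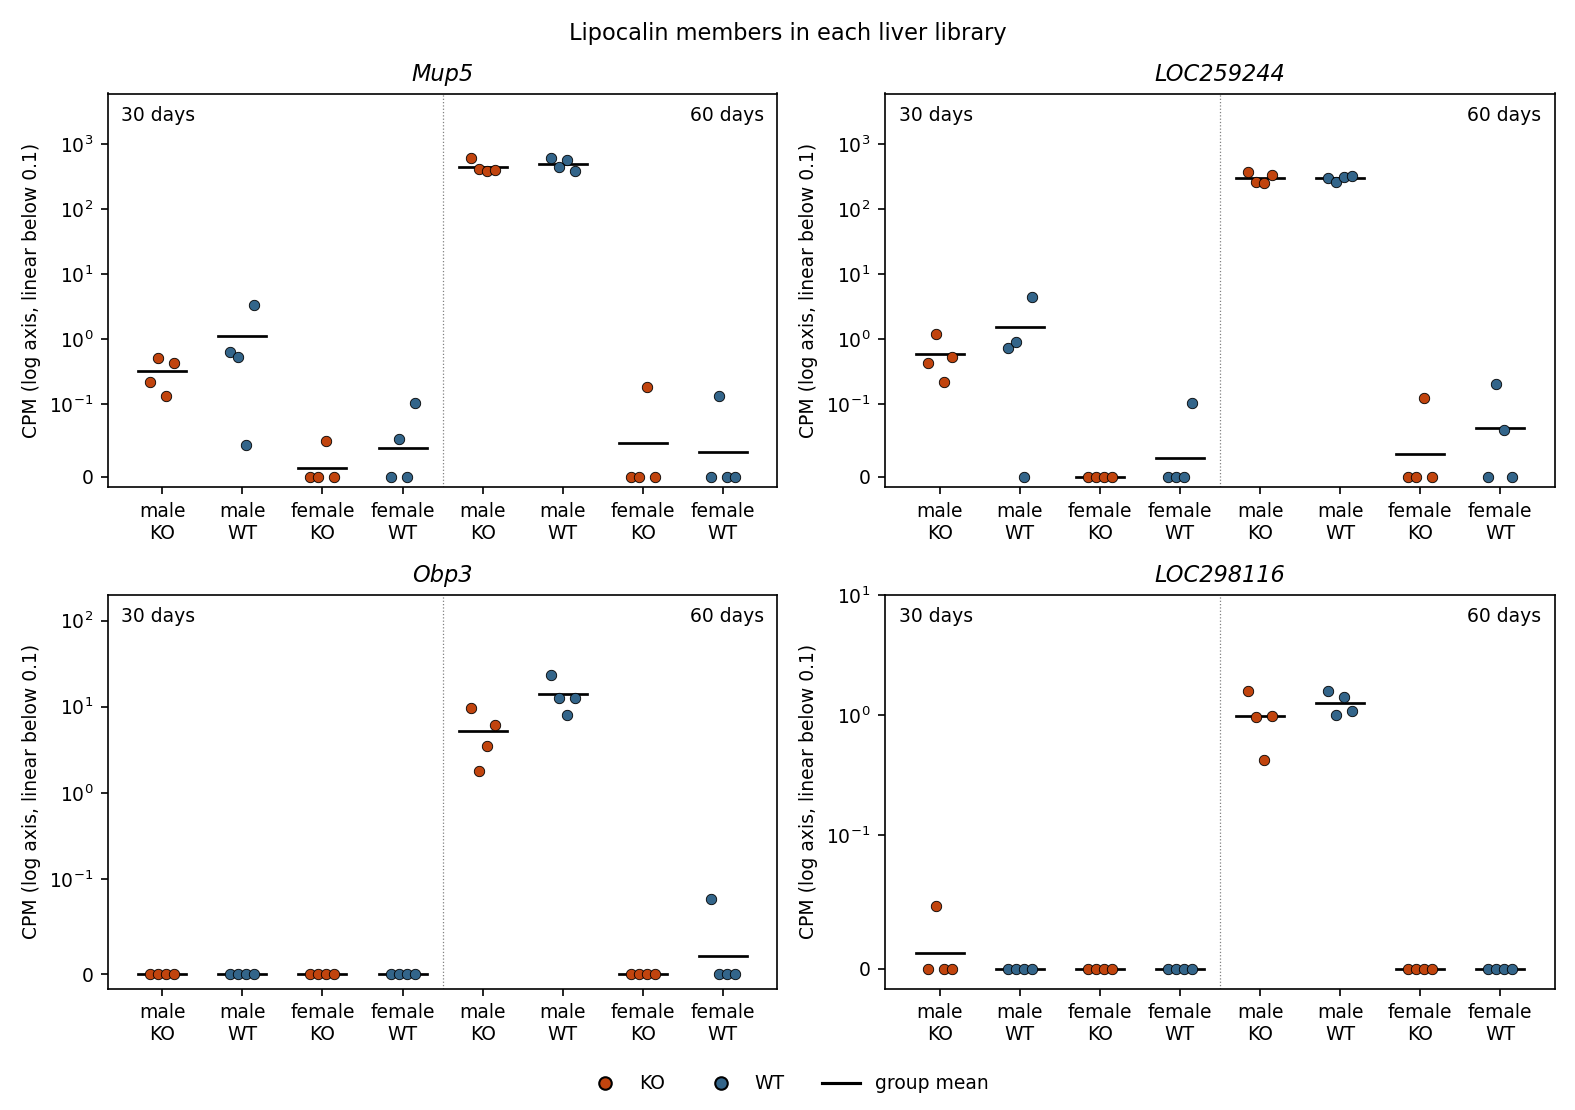
Level of each tested lipocalin member in every liver library (points, CPM on an axis that is logarithmic above 0.1 and linear below it), with the mean of each group of 4 as a bar. In 60-day males Mup5 sits between 384 and 615 CPM and LOC259244 between 251 and 372 CPM, while 60-day females of both genotypes hold 0 to 3 reads per library of each.

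At 30 days a trace of the same transcripts was present in males. Mup5 had 4, 11, 3 and 9 reads in KO males, against 1 read in all in the 4 KO females. The WT males had 12, 10, 1 and 64 reads, against 3 in all in WT females. LOC259244 had 8, 26, 5 and 11 reads in KO males, against 0 in KO females. In WT it had 14, 17, 0 and 86 reads in males, against 2 in females. The largest count of both genes came from replicate 4 of the WT males, which gave 150 of the 204 lipocalin reads of its group, and replicate 3 of that group gave 1.

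The sex difference at 30 days was called for Mup5 and LOC259244 in WT (adjusted p = 0.0199 and 0.0224, edgeR), for 2 of the 5 members tested against 1.08% of all genes called higher in males. The ratio of males to females was 28.6 for Mup5 (9.45 to 141) and 57.6 for LOC259244 (15.6 to 481). Fitted on the log2 scale these were 4.61 and 5.51. Without replicate 4 of the WT males they were 3.09 (adjusted p = 0.111) and 3.99 (adjusted p = 0.0837), so neither was called and both differences were smaller. With limma-voom neither was called either (adjusted p = 0.211 and 0.249). Neither was called without replicate 1 (0.0642 and 0.0681) or replicate 3 (0.078 and 0.0812) of the WT females, and LOC259244 was not called without their replicate 2 (adjusted p = 0.0594) or replicate 4 (adjusted p = 0.0653). In KO rats 0 of the 5 members was called higher in males, against 0.854% of all genes. The unadjusted p of 2 was below 0.05, as was that of 1450 of 11002 genes, and DESeq2 made 2 calls. Over all fits, 110 to 461 genes were called for this contrast in either direction. The level there was 25.9-fold higher in males for Mup5 (4.27 to 1060, adjusted p = 0.257) and at least 16-fold higher for LOC259244 (adjusted p = 0.123). All 4 KO males lay above all 4 KO females for both genes, and the share of all genes that did so was not counted. The sex differences of the 2 genotypes at 30 days were not shown to differ, since the sex-by-genotype test called 0 of the 5 members and 0% of all genes (606 of 11002 at an unadjusted p below 0.05, 0 of the members).

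Between 30 and 60 days all 5 tested members were higher at the later age in males of both genotypes, against 14% of all genes called higher in KO males and 15.7% in WT males. The lipocalin members passed the filter on low counts mainly through the 60-day males, so their part of this count is not independent of it. Mup5 was 1370-fold higher at 60 days in KO males (941 to 2080) and 466-fold higher in WT males (378 to 583). LOC259244 was 498-fold (378 to 672) and 204-fold (170 to 247) higher. The WT folds depend on replicate 4 of the 30-day males. Without it the log2 fold change in WT males was 10.35 for Mup5, against 8.82 with it, and 9.18 for LOC259244, against 7.65 with it. In KO males it was 10.39 and 8.96. The age-by-genotype test in males gave an adjusted p of 0.935 for Mup5 and 0.978 for LOC259244 and called 0 of the 5 members, against 0.00909% of all genes. For members without reads in a 30-day group this term could not be fitted well. Obp3 had no read in any 30-day library, so its rise is a lower bound, at least 141-fold in KO males (adjusted p = 2.27e-05, edgeR) and at least 377-fold in WT males (adjusted p = 2.86e-06). LOC298116 had 1 read in the 30-day KO males and 0 in the WT males, which makes it 79.8-fold (13.7 to 3210) and at least 33.8-fold higher at 60 days.

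In females the lipocalin members stayed at the limit of detection at both ages. All 5 lipocalin rows together gave 1 read in the 4 KO females and 5 in the 4 WT females at 30 days, and 5 and 7 at 60 days. The limit that 3 reads set over a group of females was between 0.0379 and 0.0536 CPM. Whether the rise with age differed between the sexes could not be fitted well by edgeR where a group had 0 reads. It called 0 of 5 members in KO (4.69% of all genes called) and 0 of 5 in WT (9%). At an unadjusted p below 0.05 stood 0 and 1 member, against 1915 and 2532 of 11002 genes. For Mup5 the age-by-sex term of edgeR was 8.87 ± 6.27 in KO (adjusted p = 0.518) and 8.90 ± 3.65 in WT (adjusted p = 0.136). These SEs were derived from the F statistic and are not reliable so near 0 reads. With DESeq2, which fits an SE of its own, the term was 8.76 ± 1.75 (adjusted p = 5.68e-05) and 8.91 ± 1.71 (adjusted p = 1.29e-05). With limma-voom all 4 lipocalin members were called in both genotypes. Over all fits, 376 to 698 genes were called for this term in KO and 770 to 1220 in WT.

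CBG deficiency went with no called change of any lipocalin member, and in females the reads were too few to show one. In 60-day males Mup5 averaged 450 ± 101 CPM in KO and 503 ± 105 CPM in WT (SD, n = 4 each), a log2 fold change of -0.16 ± 0.30 (adjusted p = 0.901, edgeR). LOC259244 averaged 305 ± 57 CPM in KO and 300 ± 24.3 CPM in WT (0.02 ± 0.35, adjusted p = 0.994). The KO and WT libraries of both genes overlapped. All lipocalin members summed to 985, 679, 647 and 735 CPM in KO males and to 941, 729, 882 and 720 CPM in WT males, ranges that overlap. LOC298116 averaged 0.986 ± 0.474 CPM in KO and 1.26 ± 0.28 CPM in WT, with an adjusted p of 0.797.

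Obp3 was the lipocalin member with the lowest unadjusted p for genotype. It stood at 9.63, 1.77, 3.5 and 6.14 CPM in 60-day KO males and at 23.6, 12.6, 7.95 and 12.6 CPM in WT males. Of the KO males 3 lay below every WT male, and replicate 1 lay above the lowest WT male. The log2 fold change was -1.43 ± 0.44 with an unadjusted p of 0.00699 and an adjusted p of 0.255 (edgeR), so it did not pass. It kept its sign in all 15 alternatives that gave a value, between -1.9 and -1.07, and was called in 1 of them, by limma-voom (adjusted p = 0.0131). As a share of lipocalin reads, which does not depend on the scaling between libraries, Obp3 made up 0.978%, 0.261%, 0.54% and 0.835% in KO males and 2.5%, 1.72%, 0.901% and 1.75% in WT males. These shares overlap in the same way, with KO replicate 1 above WT replicate 3.

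In the 4 contrasts of KO with WT, 0 of the 5 tested members were called. In females each tested lipocalin member had 4 reads or fewer in a group, and in 30-day males Obp3 had 0. Counts that low leave no room for a call or for groups that lie apart. The share of all genes called was 0.3% in 30-day females, 0.0545% in 30-day males, 6.77% in 60-day females and 0.209% in 60-day males. The count in 60-day females depended on KO replicate 1, with 383 genes higher and 362 lower in KO with it and 192 higher and 207 lower without it. At an unadjusted p below 0.05 stood Mup5 in 30-day males and Obp3 in 60-day males, and no other member. Of all 11002 genes 653 in 30-day males and 1188 in 60-day males stood below it too. Mup5 in 30-day males averaged 0.327 ± 0.181 CPM in KO and 1.14 ± 1.49 CPM in WT, with a log2 fold change of -1.73 ± 0.70 (adjusted p = 0.719). Without WT replicate 4 this was -0.22 (adjusted p = 0.977), and that of LOC259244 was 0.22, against -1.29 with it. The groups of KO and WT libraries did not overlap for 1 member, Rup2, in 60-day females, where 8.43% of all genes did not overlap. The groups of 0 of 5 members were apart in 30-day females (7.62% of all genes), 30-day males (6.44%) or 60-day males (4.89%). Interaction tests of genotype with sex at 60 days and with age in females called 0 of 5 members too, against 0.136% and 2.96% of all genes. They could not be fitted well for lipocalin members at or near 0 reads in females.

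The share of Mup5 among the reads of Mup5 and LOC259244 differed with age. These are shares of reads, not per length. Mup5 gave 35.1% of the Mup5 and LOC259244 reads in the 30-day KO males (exact 95% interval 24.5% to 46.8%, 77 reads) and 42.6% in the WT males (35.8% to 49.7%, 204 reads). At 60 days it gave 59.7% in KO males (59.2% to 60.2%) and 63% in WT males (62.5% to 63.4%). These intervals pool the reads of 4 rats and leave out the spread between rats. Single libraries of 60 days ranged from 54.5% to 61.8% in KO and from 54.4% to 67.2% in WT, so the genotypes overlapped. Of the 204 reads of the 30-day WT males, 150 came from replicate 4. Mup5 had more reads than LOC259244 in 1 of 8 male libraries at 30 days and in 8 of 8 at 60 days. Reads of near-identical family members can be shared or dropped by the authors' counting, so single rows are uncertain. Reads that the authors' counts list as ambiguous, by a rule that the sources used here do not state, are not tied to this family. They made up 0.607% ± 0.0407 of reads in 60-day KO males and 0.593% ± 0.0294 in WT males, against 0.386% ± 0.0825 in KO females and 0.356% ± 0.0289 in WT females of that age (SD, n = 4 each). At 30 days the 4 groups averaged 0.295% to 0.352%. The part of shared reads in this share was not tested.

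**Figure D2:**
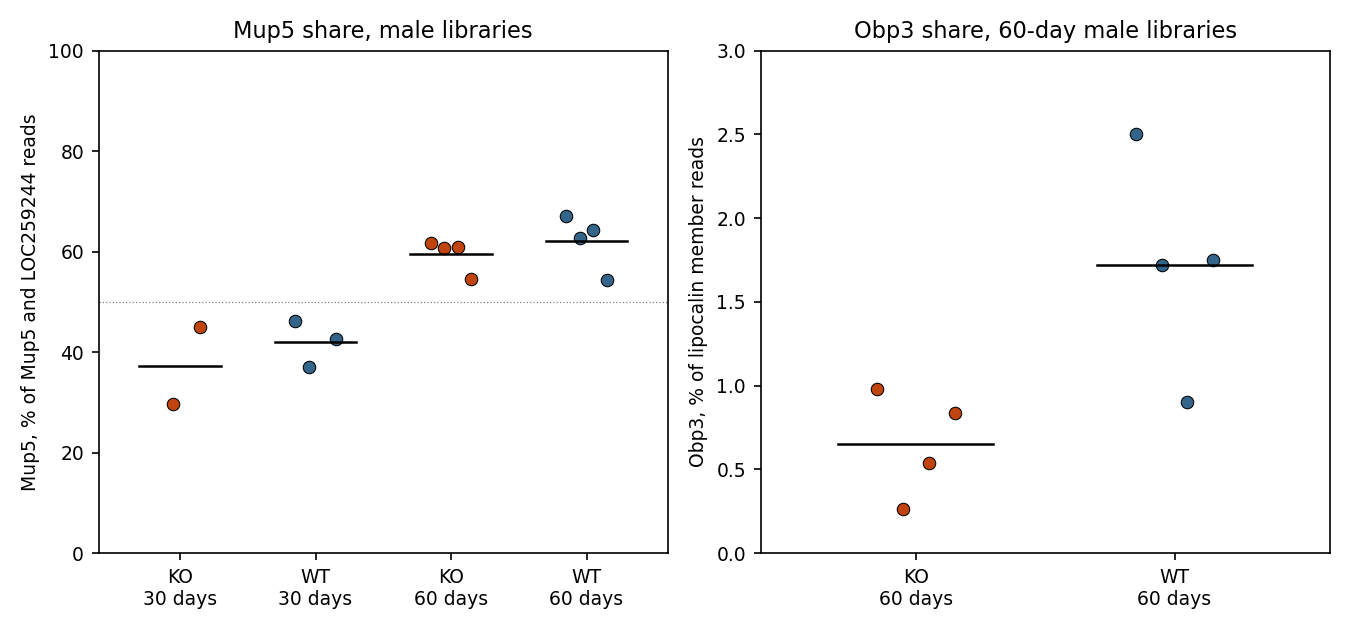
Share of Mup5 among Mup5 and LOC259244 reads in male libraries with at least 20 such reads (left), and share of Obp3 among all lipocalin member reads in 60-day males (right), both in percent, with points for libraries and bars for their means. All 8 libraries of 60 days lie above 50% in the left panel, and in the right panel 3 of 4 KO libraries lie below all 4 WT libraries.

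Rup2 varied in another way, since it was abundant in 60-day livers of both sexes. At that age it stood at 4520, 3970, 3450 and 4090 CPM in KO males and at 3350, 3550, 4370 and 3480 CPM in WT males. KO females stood at 925, 1280, 946 and 1300 CPM and WT females at 1720, 2180, 2140 and 1780 CPM. The male groups overlapped with each other, every female lay below every male, and every KO female lay below every WT female. The order of the group means was thus KO males (4010 ± 439), WT males (3690 ± 463), WT females (1960 ± 239) and KO females (1110 ± 206 CPM, SD, n = 4 each), and of the neighbours in it only the KO and WT males overlapped.

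At 30 days Rup2 was low and uneven. It stood at 60.6, 125, 154 and 136 CPM in KO males and at 118, 205, 20.9 and 419 CPM in WT males. The KO females stood at 99.6, 51.9, 259 and 68 CPM. The WT females stood at 7.03, 2.04, 19.7 and 280 CPM, a 137-fold range within 1 group. All 4 groups of this age overlapped with each other. Replicate 4 of the WT males, the library with the most lipocalin reads of its age, also had the highest Rup2 level of its age.

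Rup2 was higher at 60 than at 30 days in all 4 combinations of sex and genotype, and every 60-day library lay above every 30-day one. The log2 fold change was 5.07 ± 1.01 in KO males (adjusted p = 0.000449, edgeR) and 4.27 ± 0.97 in WT males (adjusted p = 0.00149). In KO females it was 3.22 ± 0.93 (adjusted p = 0.0132) and in WT females 4.67 ± 0.99 (adjusted p = 0.000717). Rup2 was the 1 member of 5 called in females, against 10.6% of all genes called higher in KO females and 16% in WT females. Without replicate 4 of the 30-day WT females the WT female value was 7.67 ± 0.89 (adjusted p = 3.42e-07), and with limma-voom it was 6.86. Without replicate 1 of the 60-day KO females the KO female value was 3.30 (adjusted p = 0.0187). The female calls were lost in 1 of 16 alternatives each, with only the 16 female libraries in KO (adjusted p = 0.066) and with only the 8 libraries compared in WT (adjusted p = 0.0761).

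A fit to all libraries gives each gene 1 spread for all groups, so the uneven 30-day values of Rup2 entered the error of its 60-day contrasts. The biological coefficient of variation (the spread between animals beyond counting error) fitted for Rup2 was 0.806, against 0.148 for all genes. Within this fit Rup2 was not called for KO against WT in 60-day females (-0.81 ± 0.86, adjusted p = 0.646) or males (0.12 ± 0.85, adjusted p = 0.982), nor for males against females in KO (1.85 ± 0.88, adjusted p = 0.161) or WT (0.92 ± 0.86, adjusted p = 0.476). A fit to the 16 libraries of 60 days, added after the values had been seen, gave the same fold changes with a smaller error. There KO against WT females was -0.82 ± 0.13 with an adjusted p of 0.00345, where 2.64% of 10496 genes were called. KO against WT males was 0.13 ± 0.13 (adjusted p = 0.873, with 0.0381% of genes called). Males against females was 1.85 ± 0.13 in KO (adjusted p = 2.77e-08, 13.5% of genes called) and 0.91 ± 0.13 in WT (adjusted p = 6.61e-05, 21.4% of genes called).

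The difference between the sexes in the genotype effect of Rup2 at 60 days was 0.93 ± 1.21 in the fit to all libraries (adjusted p = 0.849). In a fit to the 4 groups of that age it was 0.94 ± 0.18 (adjusted p = 0.13), so in neither did it pass. KO replicate 1 of the 60-day females, the library with photoreceptor transcripts, had the lowest Rup2 level of its group. Without it, in the fit to all libraries, the KO against WT difference was -0.73 (adjusted p = 0.768) and the sex difference in KO 1.77 (adjusted p = 0.276). In the fit to the libraries of 60 days without it, the KO against WT difference was -0.74 ± 0.13 (adjusted p = 0.0129, 1.47% of genes called) and the sex difference in KO 1.78 ± 0.14 (adjusted p = 1.46e-07, 11.3% of genes called).

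**Figure D3:**
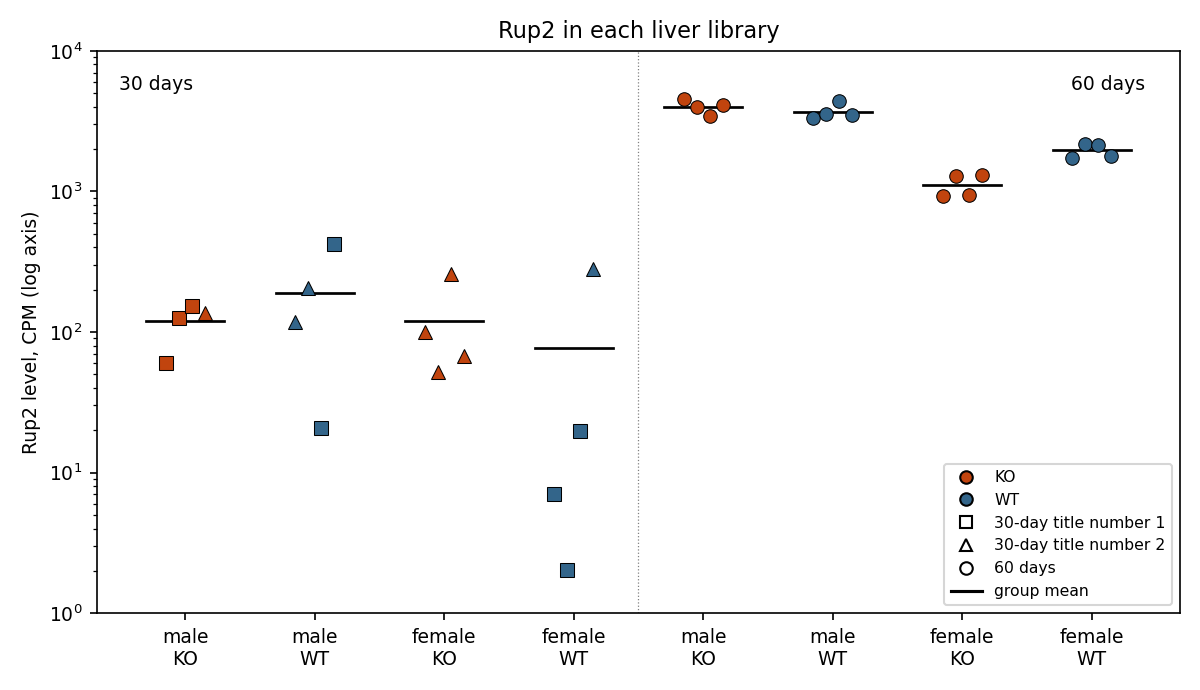
Rup2 level in every liver library (points, CPM on a log axis), with group means as bars. Squares and triangles tell the 30-day libraries apart by the number after the hyphen in their titles. At 60 days the KO females (925 to 1300 CPM) lie below the WT females (1720 to 2180 CPM), and the males of both genotypes (3350 to 4520 CPM) lie above them.

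**Figure D4:**
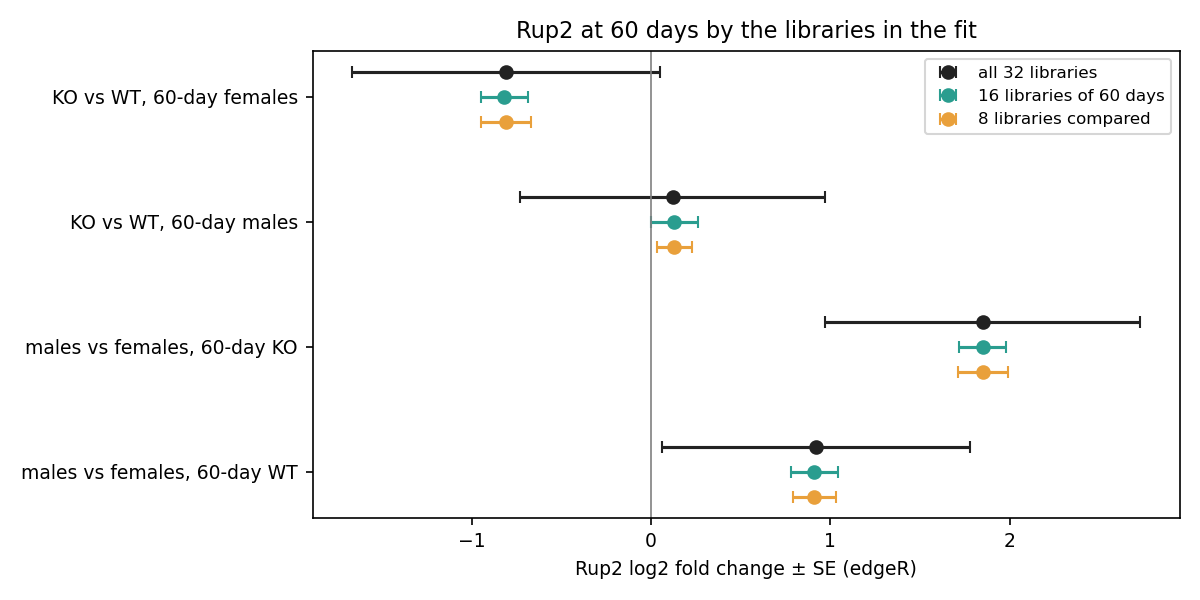
Rup2 log2 fold change ± SE at 60 days for KO against WT and for males against females, from edgeR fits to all 32 libraries, to the 16 libraries of 60 days and to the 8 libraries compared. The fold change of KO against WT females is -0.81 in the fit to all 32 and -0.82 in the fit to 16, with an SE of 0.86 and 0.13.

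At 30 days KO and WT females did not differ in Rup2 beyond the spread (0.63 ± 0.86, adjusted p = 0.855), and neither did the males (-0.68 ± 0.86, adjusted p = 0.97). The female value rested on WT replicate 4. Without it the log2 fold change was 3.64 ± 0.74 (adjusted p = 0.0232), and the age-by-genotype term in females was -4.45 ± 0.93 (adjusted p = 0.0105), against -1.45 ± 1.22 (adjusted p = 0.588) with it. The difference of males and females in 30-day WT was 4.31 ± 0.77 without it (adjusted p = 0.00296), against 1.31 with it. The 30-day titles carry a number, 1 or 2, after a hyphen, whose meaning the labels do not give. In females it runs with genotype, since all 3 libraries with number 1 were WT and the 5 with number 2 were 4 KO and WT replicate 4. Female Rup2 was 2.04 to 19.7 CPM (median 7.03) with number 1 and 51.9 to 280 CPM (median 99.6) with number 2. In males the 5 libraries with number 1 ranged from 20.9 to 419 CPM (median 125) and the 3 with number 2 from 118 to 205 CPM (median 136). With the number as a covariate the female KO against WT value was 0.30 ± 1.17 (adjusted p = 0.951), and the part of the number in it cannot be told apart from genotype in all but 1 female library.

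Genes with group means most like those of Mup5 were Pogk (Pearson's r = 0.994), Lrtm2 (0.992), Cyp4a2 (0.991), Gimd1 (0.989) and LOC100125368 (0.988), over the 8 group means of log2 CPM and among 10515 genes with at least 1 CPM in some group. Cyp4a2, a fatty acid omega-hydroxylase, averaged 2710 CPM in 60-day KO males and 3040 CPM in WT males, against 68.2 CPM in KO females and 68.7 CPM in WT females. Lrtm2 averaged 31.3 CPM and 65.5 CPM in these males, against 0.44 CPM and 0.449 CPM in the females. The range of Pogk was small, with 39.5 CPM in 60-day KO males and 42.1 CPM in WT males and between 21.9 and 26.5 CPM in the other 6 groups. Likeness of shape thus says nothing of size. Among the members, LOC259244 had r = 0.998 with Mup5, LOC298116 0.985 and Obp3 0.975.

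For Rup2 the closest were Cul4a (r = 0.988), Mettl7b (0.982), Psmb2 (0.98), Trhde (0.98) and Pon2 (0.979). Mettl7b, a methyltransferase, was at 605 CPM in 60-day KO males and 649 CPM in WT males and at 313 CPM in KO females and 333 CPM in WT females. At 30 days it was at 39.2 CPM in KO males, 32.2 CPM in WT males, 54.8 CPM in KO females and 21.8 CPM in WT females. Cul4a, a ubiquitin ligase scaffold, ranged only from 163 to 200 CPM over the 8 groups. These are descriptions over 8 points that share libraries.

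Other lipocalins of the liver were called in both directions between the sexes. Of a list of 16, 14 were in the table and 8 were tested. In 60-day rats 3 of 8 were called higher and 1 lower in males in KO, and 2 higher and 2 lower in WT. Of all genes 9.63% were called higher and 8.89% lower in KO, and 13.7% higher and 12.7% lower in WT. The list had a median log2 difference of -0.15 and 0.14, against -0.02 and 0 over all genes. Mup4, another gene of the cluster on chromosome 5, had 30, 1, 12 and 9 reads in 60-day KO males and 12, 16, 9 and 4 in WT males, and 0 in the other 24 libraries. Without replicate 1 of the KO females the KO counts were again 3 and 1. Rbp4, the retinol carrier of blood, averaged 3840 ± 205 CPM in 60-day KO males and 2940 ± 245 CPM in KO females (adjusted p = 0.000406, and 0.00346 without that library), and 4060 ± 363 against 2950 ± 83.2 CPM in WT (adjusted p = 2.85e-05, edgeR). Apom, the apolipoprotein that carries sphingosine-1-phosphate, was lower in males, at 226 ± 20 CPM against 438 ± 58.2 CPM in KO (adjusted p = 7.95e-08, and 5.97e-08 without that library) and at 304 ± 61.6 against 404 ± 35.2 CPM in WT (adjusted p = 0.00391).

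In the genotype contrasts 1 lipocalin of this list was called, Orm1, the acute phase protein alpha-1-acid glycoprotein. It averaged 164 ± 61.5 CPM in 60-day KO females and 605 ± 212 CPM in WT females (-1.88 ± 0.29, adjusted p = 0.000223, edgeR), and the difference was -1.71 ± 0.30 without KO replicate 1 (adjusted p = 0.0017). Obp1f, a nasal odorant binding protein, was too low to be tested, with 5, 12, 5 and 10 reads in 30-day KO males and 9, 7, 6 and 5 in WT males, against 2 and 3 in all in the KO and WT females of that age. At 60 days Obp1f had 13 reads in the 4 KO males and 14 in the 4 WT males. LOC259245, Obp2a and Obp2b had no read in any library. Of the list of Ly6/uPAR genes 4 of 7 were in the table and 3 tested, and 0 were called for sex or genotype. Cd59, the complement inhibitor, was higher at 60 than at 30 days in KO males (0.40 ± 0.10, adjusted p = 0.00209), WT males (0.47 ± 0.10, adjusted p = 0.000331) and WT females (0.31 ± 0.10, adjusted p = 0.0134). Of all genes 14%, 15.7% and 16% were called higher in these groups. Plaur of the same list was lower at 60 days in WT females (-0.81 ± 0.31, adjusted p = 0.0458, edgeR), where 17.1% of all genes were called lower.

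Some known sex markers of rat liver already differed at 30 days, when the lipocalin members were at traces. Of 6 male-biased genes 4 were called higher in males in 30-day KO rats and 5 in WT rats, and 6 of 6 in both genotypes at 60 days. Of all genes 0.854% in KO and 1.08% in WT were called higher at 30 days, and 9.63% and 13.7% at 60 days. Of 6 female-biased genes 2 in KO and 3 in WT were lower in males at 30 days, against 152 and 109 of 11002 genes. Sult2a2 and Cyp3a9 of that list leaned higher in males at 30 days in both genotypes, without a call. Cyp2c11, the male-specific testosterone hydroxylase, averaged 202 ± 90.1 CPM in 30-day KO males and 10.4 ± 6.11 CPM in KO females. At 60 days it averaged 1830 ± 717 CPM in KO males and 2010 ± 493 CPM in WT males, against 0.11 ± 0.146 and 0.441 ± 0.352 CPM in the females. In females 4 of these 6 genes in KO and 5 in WT were lower at 60 than at 30 days, against 12.1% and 17.1% of all genes called lower. In males 4 in KO and 2 in WT were higher, against 14% and 15.7% of all genes. Without replicate 1 of the 60-day KO females the KO counts were again 6 between the sexes at 60 days and 4 with age in females. Of the 6 female-biased genes 6 in KO (5 without that library) and 5 in WT were lower in males at 60 days, against 8.89% and 12.7% of all genes. Among them was Cyp2c12, a steroid sulfate hydroxylase, at 82.3 ± 23.6 CPM in KO males and 4130 ± 254 CPM in KO females (adjusted p = 3.46e-13, and 3.44e-12 without that library, edgeR). Between KO and WT both lists gave calls in 60-day females only, where 6.77% of all genes were called. Cyp3a9 was lower in KO (87.4 ± 32.2 against 426 ± 83.8 CPM, adjusted p = 3.95e-05, edgeR). Sult2a2 was higher (195 ± 154 against 3.18 ± 2.36 CPM, adjusted p = 0.00381), as was Slco1a1 of the male-biased list (308 ± 19.4 against 245 ± 30.1 CPM, adjusted p = 0.0111). Without KO replicate 1 the counts of both lists were the same. These lists are textbook markers, and their use here followed earlier results on these data.

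Genes of the hormone pathways that are known to govern the family were all measured, 21 of 21. For genotype 0 were called in 30-day females, 30-day males and 60-day females, and 1 in 60-day males. This was Cebpb, a transcription factor of the C/EBP family, at 37.4 ± 6.77 CPM in KO males and 75.2 ± 6.96 CPM in WT males (-1.01 ± 0.17, adjusted p = 0.00792, edgeR). For age, 8 of 21 were called higher and 1 lower at 60 days in KO males, and 6 higher and 1 lower in WT males. Of all genes 14% were called higher and 14.5% lower in KO males, and 15.7% higher and 15.8% lower in WT males. Ghr, the growth hormone receptor, averaged 549 ± 30.9 CPM at 60 days and 303 ± 13.6 CPM at 30 days in KO males (adjusted p = 3.02e-06), and 516 ± 67.3 against 300 ± 28.1 CPM in WT males (adjusted p = 1.02e-05). It was also higher at 60 days in females of both genotypes, at 811 ± 61.6 against 411 ± 26.1 CPM in KO (adjusted p = 6.09e-07, and 3.25e-06 without replicate 1 of the 60-day KO females). Nr3c1, the glucocorticoid receptor, was higher at 60 days in KO males (0.56 ± 0.12, adjusted p = 0.000446) and WT males (0.51 ± 0.12, adjusted p = 0.00103).

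Between the sexes at 60 days 4 regulators were higher and 3 lower in males in KO, and 4 higher and 5 lower in WT, of 21. Of all genes 9.63% were called higher and 8.89% lower in KO, and 13.7% and 12.7% in WT, and the list counts are too few to set apart from these shares. Without replicate 1 of the KO females, 3 were higher and 3 lower in KO. Cux2, described in rodents as a female-biased repressor, averaged 10 ± 11.7 CPM in KO males and 142 ± 20.6 CPM in KO females (adjusted p = 4.33e-06, and 1.64e-05 without that library, edgeR). In WT it averaged 1.55 ± 0.532 CPM in males and 141 ± 21.2 CPM in females (adjusted p = 1.55e-08). Prlr, the prolactin receptor, was likewise lower in males, at 34.4 ± 33.1 against 711 ± 174 CPM in KO (adjusted p = 8.49e-05, and 0.000261 without that library) and at 19.4 ± 21 against 689 ± 120 CPM in WT (adjusted p = 1.18e-05). Igf1, the growth factor that growth hormone induces, was higher in males in KO (0.88 ± 0.12, adjusted p = 2.04e-06, and 1.9e-05 without that library) and in WT (0.61 ± 0.12, adjusted p = 0.000229).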

How the data were processed

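Liver messenger RNA was sequenced from 32 rats with a stranded kit, per the labels. STAR, Cufflinks, limma and the assembly Rnor_5.0 were used, per the submitters' processing notes; the sources used here do not state their roles, their versions or the strand setting, so overlapping and antisense reads cannot be parted. The authors deposited raw counts of reads per gene (17327 genes, with 2 further lines for ambiguous and unassigned reads, left out of totals), and log2 values, used in 1 alternative only.

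Counts were tested in R 4.3.3 with edgeR 4.0.16 (filterByExpr, minimum count 10, TMM scaling, robust quasi-likelihood fit of 8 group means, 24 residual degrees of freedom). There were 18 contrasts, with adjustment over 11002 genes within each. Alternatives were other scalings, no filter, DESeq2 1.42.0, limma 3.58.1 (voom, and the deposited log2 values), fewer libraries, the title number as a covariate and leaving out each library. The code was checked on simulated data with 200 changed genes. The counts of all 48 replicate pairs were further apart than counting error allows (chi-square over its degrees of freedom 11.1 to 58.6), so each library counted as 1 replicate. The labels do not tie libraries to litters or batches, and p-values measure the spread between these rats. Replicate numbers follow the order of the samples.

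Named genes were all members, Serpina6, up to 4 called genes per list and contrast, list genes near 0 reads, and the 5 genes most like Mup5 and Rup2 in their group means. The members and lists were chosen with earlier results of these data known.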

Additional observations from a re-analysis of the deposited data

Results flagged for a closer look

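In 21 sets of 4 libraries screened for 1 library far from the other 3, 3 stood apart. The cut-off flags about 1 in 20 such sets by chance for normally distributed values, a rate that does not hold for counts near 0. Mup5 in replicate 1 of the 60-day KO males stood at 602 CPM, and its nearest neighbour at 411 CPM. LOC259246 in replicate 3 of the 60-day KO males stood at 1.05 CPM, from 15 reads, and the other 3 libraries had 0. Once such a set is screened, the rule always flags this pattern. Rup2 in replicate 4 of the 30-day WT females stood at 280 CPM, and its nearest neighbour at 19.7 CPM.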

How the results depend on the processing

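No paired analysis was possible because no label ties a rat of one group to a rat of another, and replicate numbers only follow sample order. The cause of the changes below was not tested. DESeq2 called 2 members for sex in 30-day KO, and for age by sex 3 in KO and 4 in WT. With limma-voom 1 member was called for KO against WT in 60-day males, 0 for sex in 30-day WT and 4 for age by sex in each genotype. The deposited log2 values gave 2 for sex in 30-day KO and 4 for age by sex in each genotype. Over all fits, 110 to 461 genes were called for sex in 30-day KO. For age by sex 376 to 698 were called in KO and 770 to 1220 in WT. With only the groups compared, 1 was called for KO against WT in 60-day females and 0 for age in WT females, and 0 for sex in 30-day WT, where Rup2 alone passed the filter, so that Mup5 and LOC259244 were not tested. With the 16 libraries of an age, added after the data were seen, 1 was called for KO against WT in 60-day females and 1 for sex in 30-day WT. The 60-day females also gave 1 without KO replicate 1. With the 16 of a sex, also added, 0 were called for age in KO females, and the title number as a covariate left 1 for sex in 30-day WT. Leaving out 1 library at a time gave 0 to 2 members for sex in 30-day WT, and 0 to 1 for KO against WT in 30-day females, for age by genotype in females and for age by sex in WT.

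Signs turned for 6 values, none of them called in the fit to all libraries. LOC259244 in 30-day males (KO against WT) was -1.29 in the fit to all libraries, 0.19 with limma-voom and 0.11 on the deposited values, and lay between -1.9 and 0.22 over all alternatives, the highest without WT replicate 4. In 60-day males it lay between -0.09 and 0.1. Rup2 between the sexes in 30-day KO was 0.2 with limma-voom, 0.23 on the deposited values and 1.39 with the title number, and between -0.26 and 0.7 with 1 library left out. With 1 library left out, Rup2 for KO against WT lay between -0.07 and 3.64 in 30-day females and between -1.06 and 0.05 in 30-day males, and its age-by-sex term in WT between -3.4 and 0.35.

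Counts over all genes moved more than 1.5 times in some alternatives. KO against WT gave 745 genes in 60-day females (56 to 978), 33 in 30-day females (4 to 92), 23 in 60-day males (2 to 65) and 6 in 30-day males (1 to 26). Sex gave 246 in 30-day KO (110 to 461), 228 in 30-day WT (119 to 358), 2037 in 60-day KO (1199 to 2132) and 2901 in 60-day WT (1914 to 3036). Sex by genotype at 60 days gave 15 (2 to 126), and age by genotype 326 in females (93 to 595) and 1 in males (0 to 18). Depth limits the females, where 3 reads over a group stand for 0.0379 to 0.0536 CPM.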
